A study of Mus musculus with 4 samples.

Results

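The interleukin 1 receptor gene cluster of the mouse holds 6 genes side by side on chromosome 1, all transcribed from the plus strand, in the order Il1r2, Il1r1, Il1rl2, Il1rl1, Il18r1 and Il18rap. The members were chosen by position, as the 6 receptor genes of this family in one stretch, extended by 5 kb on each side, and the stretch was picked with FGR against control results of these libraries known. The span studied is chr1:40079692-40556707 in mm10, 477 kb long. It held 3566 of the 15959399 autosomal CpGs that at least 1 library listed, and the 6 genes were among 28039 gene bodies with enough reads to compare.

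The data were whole-genome bisulfite sequences of hippocampal microglia, the brain's own macrophages, from mice at postpartum week 3. The study compared 2 libraries of control mice with 2 libraries of mice labelled FGR, which the title of the series describes as intrauterine growth restriction, and asked how growth restriction bears on microglial DNA methylation. All 4 libraries carry the genotype Tmem119-tdTomato+/-, a fluorescent reporter at a gene of microglia, so the reporter allele is shared by both groups. How growth restriction was brought about, how the cells were sorted and whether the 2 libraries of a group came from separate animals or pools is not stated in the labels, so the spread between them may be technical.

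Receptors of this family bind cytokines of the interleukin 1 group at the cell surface, recruit an accessory chain and signal through the adaptor Myd88 towards NF-kappaB. Il1r1 is the signalling receptor for interleukin 1, while Il1r2 is a decoy that binds interleukin 1 without signalling. Il1rl2 is the receptor for interleukin 36, Il1rl1 (ST2) the receptor for the alarmin interleukin 33, and Il18r1 and Il18rap are the ligand-binding and the accessory chain of the interleukin 18 receptor. In mammalian cells most CpGs are methylated, and stretches of low methylation commonly mark promoters and enhancers.

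Bisulfite sequencing reads a methylated cytosine as C and an unmethylated one as T. The level of a region is the share of reads that carried C at its CpGs in 1 library, and a difference is the mean of the 2 FGR libraries minus the mean of the 2 control libraries, in percentage points. Errors are SDs with n = 2, unless another n is given. Intervals are Wilson's 95% intervals, which cover counting error only and take each read at each CpG as independent, although a read over several CpGs counts at each of them. Because the cluster was picked on the contrast of FGR with control, that contrast is described here and not tested. A comparison of 2 libraries with 2 has 6 assignments of the labels, and an exact permutation test could not go below p = 0.333.

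The stretches before 4 receptor gene starts are printed here because their CpGs are the ones whose reads are described further on. Each is the 250 bases before the start, plus strand, 5′ to 3′, from RefSeq on GRCm38.p6, the assembly of mm10, with the CpGs in capitals. They lie at chr1:40266336-40266585 for the second start of Il1r1, chr1:40324339-40324588 for Il1rl2, chr1:40439379-40439628 for the second start of Il1rl1 and chr1:40515112-40515361 for Il18rap.
Il1r1 second start: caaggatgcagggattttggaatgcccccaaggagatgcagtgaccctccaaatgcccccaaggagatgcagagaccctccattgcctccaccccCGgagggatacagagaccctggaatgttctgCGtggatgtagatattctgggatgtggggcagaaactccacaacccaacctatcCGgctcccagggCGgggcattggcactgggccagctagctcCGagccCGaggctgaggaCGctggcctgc
Il1rl2: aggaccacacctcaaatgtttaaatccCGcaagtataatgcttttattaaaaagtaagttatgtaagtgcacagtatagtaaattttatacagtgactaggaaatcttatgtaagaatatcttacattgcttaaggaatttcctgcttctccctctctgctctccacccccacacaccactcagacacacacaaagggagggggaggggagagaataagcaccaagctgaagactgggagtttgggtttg
Il1rl1 second start: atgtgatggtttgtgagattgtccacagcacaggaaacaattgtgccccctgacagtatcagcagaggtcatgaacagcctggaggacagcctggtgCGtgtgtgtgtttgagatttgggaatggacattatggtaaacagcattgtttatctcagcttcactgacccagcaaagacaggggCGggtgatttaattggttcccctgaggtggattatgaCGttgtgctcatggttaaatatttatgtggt
Il18rap: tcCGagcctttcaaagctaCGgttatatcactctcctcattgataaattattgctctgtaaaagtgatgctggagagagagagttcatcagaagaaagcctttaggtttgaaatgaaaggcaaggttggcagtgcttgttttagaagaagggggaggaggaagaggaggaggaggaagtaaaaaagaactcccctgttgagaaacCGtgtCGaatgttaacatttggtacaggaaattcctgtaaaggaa

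These 4 stretches hold 7, 1, 3 and 4 CpGs in that order. The median over 32851 promoter stretches of the same length was 6. Il1r2 holds 14 CpGs in its stretch, the most in the cluster, and the first start of Il1rl1 holds 0. All 47 listed CpGs that fall in the promoter windows of the members stand at a CG of the reference sequence.

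The whole cluster was highly methylated in microglia of both groups. Its level was 84.5% in control 1 (interval 83.8 to 85.1%), 84.7% in control 2 (84.0 to 85.3%), 83.3% in FGR 1 (82.6 to 84.0%) and 81.1% in FGR 2 (80.6 to 81.7%). Both FGR libraries lay below both controls, and FGR 2 lay furthest down. The autosomes as a whole stood at 76.0%, 76.3%, 74.6% and 75.6% in the same order. The cluster was more methylated than the autosomes in every library. The control mean of the cluster was 84.6% ± 0.127 and the FGR mean 82.2% ± 1.55, a difference of -2.35 points, beside -1.05 points over the autosomes.

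Which CpGs a library lists moves with this difference. The tables list only cytosines with at least 5 reads, and the mean coverage of a listed cytosine was 6.51 to 6.76 reads, so the cluster had 1752, 1812, 1515 and 2490 listed CpGs in control 1, control 2, FGR 1 and FGR 2. The reads at these CpGs numbered 12217, 13077, 10200 and 20084. Only 312 of the 3566 CpGs (8.75%) were listed in all 4 libraries, and 1101 (30.9%) in a single one. CpGs listed in a single library had a level of 77.8%, those in all 4 one of 85.2%. FGR 2, the deepest library, had 501 CpGs that no other library listed, at 75.3%, while its other 1989 CpGs stood at 82.4%.

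At the 2051 CpGs listed in both groups, the mean over CpGs was 83.7% for control and 83.1% for FGR, which is -0.635 points apart. For the 312 CpGs common to all libraries, levels were 84.9%, 86.6%, 85.2% and 84.3% for control 1, control 2, FGR 1 and FGR 2. There FGR 1 lay between the controls, and the difference was -1.01 points. The direction was thus kept in both comparisons, at less than the size over all CpGs.

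**Figure D1:**
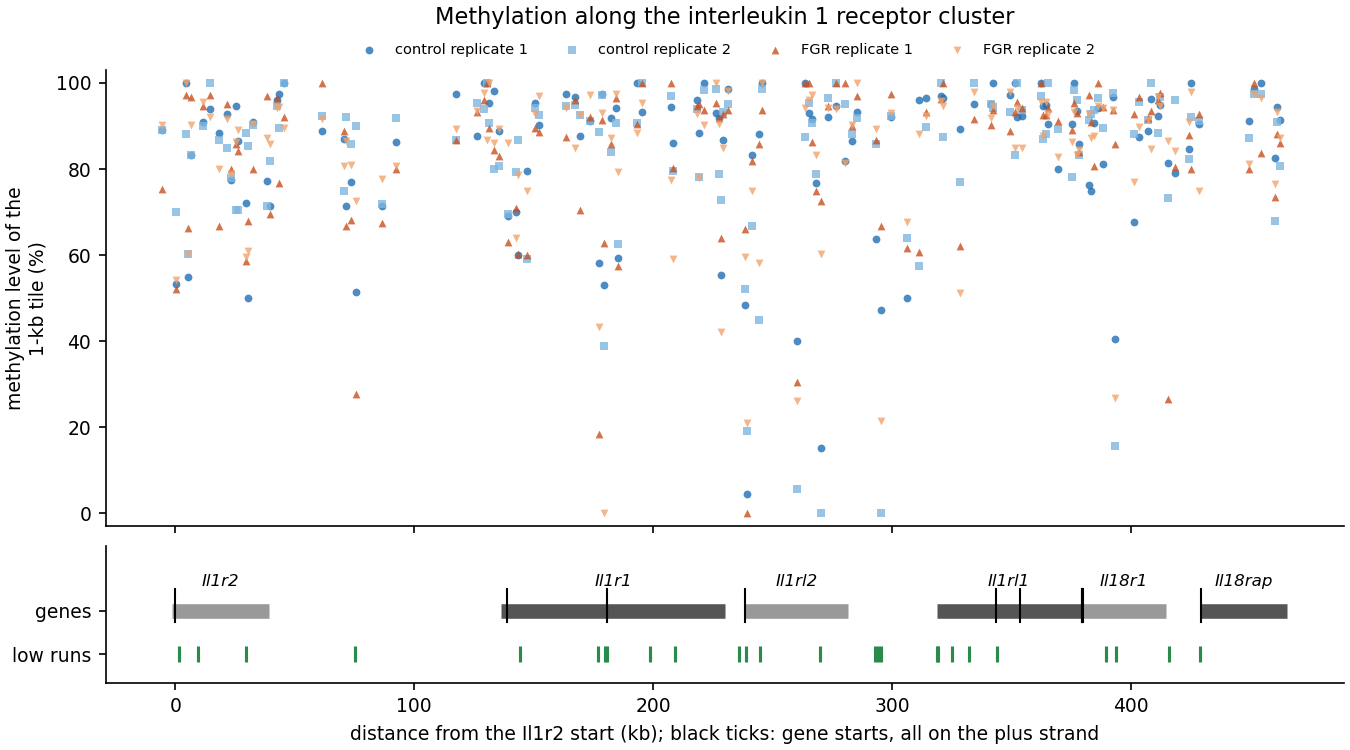
Methylation level of 1-kb tiles along the cluster for each of the 4 libraries, plotted against the distance from the start of Il1r2 in kb, with the 6 genes and the runs of low CpGs drawn below. Most tiles lie near the top of the scale in every library, with short dips at a few gene starts and inside genes.

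Along the cluster the level was high and even, broken by short dips. Of 478 tiles of 1 kb, 127 had 3 or more CpGs and 10 or more reads in each of the libraries, and 94 of these (74.0%) stood at 80% or more in the mean of the 4 libraries. Over all 550538 autosomal tiles with enough reads that share was 53.0%. The median tile stood at 89.5% in the cluster and at 81.0% over the autosomes. Only 2 tested tiles (1.57%) were under 30%, against 2.74% of all tiles. Both lie at Il1rl2. One is the tile just after its start, chr1:40325001-40326000, with 4.55%, 19.0%, 0% and 20.9% in control 1, control 2, FGR 1 and FGR 2. The other is chr1:40346001-40347000 inside the gene, with 40%, 5.56%, 30.4% and 26.1%.

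The bodies of the 2 interleukin 1 receptors, taken from 500 bp inside either end of the annotated gene, stood nearest to the genome's typical gene body, whose median was 77.7%. The decoy receptor Il1r2 had 84.1%, 80.2%, 81.5% and 81.5% in control 1, control 2, FGR 1 and FGR 2. The FGR libraries lay between the controls, with means of 82.1% ± 2.75 for control and 81.5% ± 0.00383 for FGR. The signalling receptor Il1r1, the longest gene of the cluster, had 83.1%, 84.1%, 83.0% and 79.8%. Its group means were 83.6% ± 0.744 and 81.4% ± 2.32, and the gap of -2.18 points came from FGR 2, since FGR 1 nearly equalled control 1.

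The receptors for interleukin 36 and interleukin 33 had the largest differences between group means among the bodies. The body of Il1rl2 had 84.7%, 84.2%, 83.9% and 77.9% in control 1, control 2, FGR 1 and FGR 2, a difference of -3.53 points between 84.4% ± 0.379 and 80.9% ± 4.29. FGR 1 lay within a point of the controls and FGR 2 well below. The body of Il1rl1 had 89.5%, 87.6%, 86.3% and 84.9%. Here both FGR libraries lay below both controls, with 88.5% ± 1.32 for control, 85.6% ± 1.01 for FGR and -2.94 points between them.

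The 2 chains of the interleukin 18 receptor were among the most methylated members. Il18r1 had 86.0%, 88.4%, 90.3% and 82.0% in its body, with the 2 FGR libraries on either side of the controls and an FGR SD of 5.88 points. Its difference was -1.06 points. Il18rap had 88.3%, 88.7%, 89.7% and 90.0%, the one member body where FGR was higher, by 1.31 points. Its FGR libraries both lay above its controls.

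Ordered by the mean of the 4 libraries, the bodies ran from Il1r2 at 81.8% ± 1.63 (SD, n = 4) through Il1r1 at 82.5% ± 1.89, Il1rl2 at 82.7% ± 3.21, Il18r1 at 86.6% ± 3.58 and Il1rl1 at 87.1% ± 1.95 to Il18rap at 89.2% ± 0.784. The ranges of mean and SD of neighbours in this order overlapped. The body of Il18rap was higher than 92.6% of all gene bodies, that of Il1r2 higher than 66.2%.

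**Figure D2:**
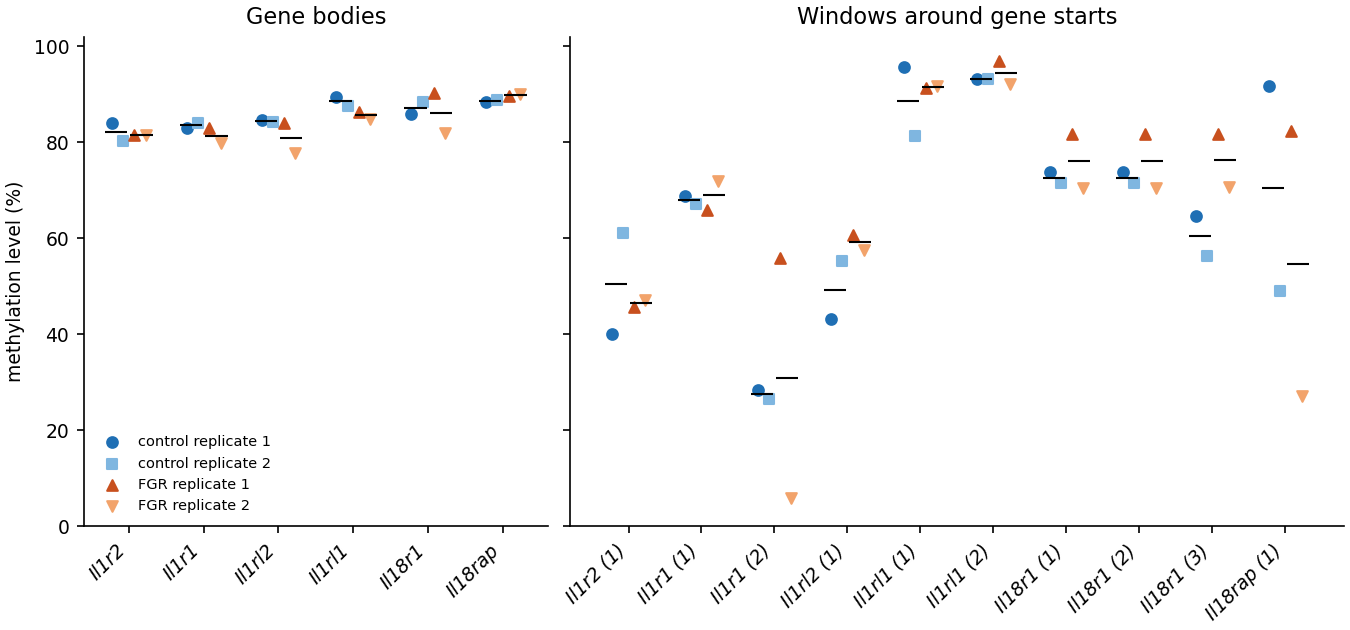
Methylation level in percent of the body and of the start windows of each of the 6 genes, with 1 point for each library and bars at the group means. The bodies sit between 77.9% and 90.3%, while the starts range from 5.93% to 97.0%.

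Of the 6 bodies 5 were lower in FGR, and 60.7% of all gene bodies were. The median difference was -1.62 points over the members and -0.842 points over all bodies. The groups did not overlap for 4 of the members, Il1r1, Il1rl2, Il1rl1 and Il18rap, and for 35.3% of all bodies. For Il1r1 this rests on FGR 1 at 83.049% beside control 1 at 83.055%. For Il1rl2 it rests on FGR 1 at 83.9% beside control 2 at 84.2%. No member body was called, where a call needs a Benjamini-Hochberg adjusted p under 0.05 in a quasi-binomial model over all regions and a difference of at least 10 points; 0.00% of all bodies were called, with 1777 of them at an unadjusted p under 0.05. Averaged over CpGs listed in both groups, 3 of the 6 bodies were lower in FGR, with differences from -1.81 points (Il1rl1, 268 CpGs) to 0.852 points (Il1r2, 213 CpGs). The 2 members with the largest body differences, Il1rl2 and Il1rl1, had -0.562 points over 175 CpGs and -1.81 points by that measure.

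The spaces between the genes were also methylated. The stretch from Il1r2 to Il1r1 had 87.1%, 87.5%, 81.6% and 83.3% in control 1, control 2, FGR 1 and FGR 2, with both FGR libraries lower and a difference of -4.84 points. Over its 313 CpGs listed in both groups the difference was -2.47 points. The short stretch from Il1r1 to Il1rl2 went the other way, with 76.9%, 75.8%, 86.6% and 77.8%, a difference of 5.81 points and 2.51 points at CpGs of both groups. Its end shares CpGs with the start window of Il1rl2 described below, so the 2 are not independent. The stretch from Il18r1 to Il18rap had 86.1%, 79.1%, 78.1% and 77.1%, with both FGR libraries lower. The difference was -4.97 points over all its CpGs and -0.653 points at CpGs of both groups. That from Il1rl2 to Il1rl1 differed by -0.559 points. Outside the cluster, the body of Map4k4, a kinase gene before Il1r2, stood at 65.3%, 65.6%, 66.7% and 65.9%. The body of Slc9a4, a sodium/proton exchanger gene after Il18rap, stood at 80.02%, 81.5%, 80.2% and 77.2%. The cluster was thus set off from Map4k4 by more than the spread between libraries.

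RefSeq gives 10 starts for the 6 genes, and the windows around them, from 1500 bp before to 500 bp after, divided the receptors. The 2 starts of Il1rl1, the interleukin 33 receptor, were highly methylated, at 95.7%, 81.4%, 91.2% and 91.8% for the first and 93.3%, 93.2%, 97.0% and 92.1% for the second. Within 250 bases before and 50 bases after these starts the reads of the 4 libraries together were 85.7% methylated (21 reads) and 89.5% methylated (57 reads). In the printed stretch of its second start, the CpG 153 bp before the start was methylated in 12 of 12 reads of control 1 and 5 of 6 of control 2. The other 2 CpGs of that stretch were methylated in most reads of each library that listed them. The median of the 22296 starts with enough reads was 55.7%.

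Il18r1, the ligand-binding chain for interleukin 18, lay lower but not low. Its first and second starts shared their listed CpGs, at 73.8%, 71.4%, 81.6% and 70.5% in control 1, control 2, FGR 1 and FGR 2. Its most downstream start had 64.7%, 56.2%, 81.8% and 70.6%, from 34, 16, 22 and 109 reads, with 6 CpGs listed in both groups. FGR 1 was the highest library in both windows. Near its first start 35.6% of 45 reads were methylated, and those reads came from control 1 and FGR 2 alone.

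The second start of Il1r1 was low, with levels of 28.4%, 26.5%, 55.8% and 5.93% in the wide window. The 2 FGR libraries were the highest and the lowest, so their spread exceeded any difference between the groups. Over the 13 CpGs listed in both groups FGR was higher by 2.40 points. A run of 23 neighbouring CpGs across this start, chr1:40266462-40266916, stood at 7.29% of 151 reads. In the printed stretch, the CpG 155 bp before the start, just outside that run, was methylated in 2 of 6, 5 of 7, 2 of 5 and 3 of 5 reads of the 4 libraries. At the first start of Il1r1, far upstream, the level of the wide window was 68.8%, 67.1%, 65.8% and 72.0%. Within 250 bases before and 50 bases after that start it was lower, 36.6% of 101 reads. There the libraries had 41.2%, 51.6%, 33.3% and 11.8%, from 17, 31, 36 and 17 reads, both FGR libraries below both controls. The difference was -10.9 points averaged over the 4 CpGs listed in both groups.

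At Il18rap, the accessory chain for interleukin 18, the window had 91.8%, 49.1%, 82.3% and 27.2%, a wide spread within both groups. The libraries differed in which side of a sharp edge they listed. All 10 listed CpGs from 1439 to 781 bp before the start were mostly methylated in each library that listed them, and those from 356 bp before to 104 bp after were near 0, listed mainly in control 2 and FGR 2. Over the 14 CpGs of both groups the difference was -1.55 points. The run of low CpGs there, chr1:40514969-40515466, stood at 6.12% of 147 reads over 9 CpGs. In the printed stretch, control 2 had 0 of 12 and 2 of 12 methylated reads at the 2 CpGs near its left end, and FGR 2 had 2 of 14 and 0 of 14.

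The start of the decoy receptor Il1r2 could be measured with few reads, 18 to 59 in a library, although its printed-length stretch holds the most CpGs. Its window had 40%, 61.1%, 45.8% and 47.2%. Only 2 of the 14 CpGs just before the start were listed, in FGR 2 alone, where 1 of 10 reads was methylated.

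The start of Il1rl2 was covered in all 4 libraries. Its window had 43.1%, 55.2%, 60.7% and 57.6% in control 1, control 2, FGR 1 and FGR 2. Both FGR libraries lay above both controls, with 49.1% ± 8.54 for control, 59.2% ± 2.13 for FGR and 10.02 points between them. Both FGR libraries also lay above both controls at the 10 CpGs that every library listed, with 45.6%, 56.2%, 64.9% and 66.7%. Taken singly, only those 295 and 292 bp before the start, described below, had both FGR libraries above both controls. The mean over 19 CpGs of both groups differed by 6.84 points, and the same CpGs had the largest differences among the 19. The start was not called, and 0.00% of all starts were (0 of 22296, with 1325 at an unadjusted p under 0.05 in the quasi-binomial model and 1125 with limma, which called 0 as well).

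This window holds an edge between methylated and unmethylated DNA. The CpGs from 545 to 339 bp before the start were mostly methylated in each library, and the run chr1:40324591-40325751, which begins 2 bp after the start, stood at 5.97% of 335 reads over 27 CpGs. Between them lie few CpGs, since the printed stretch holds a single one, 223 bp before the start, methylated in 3 of 5, 7 of 9, 9 of 12 and 11 of 13 reads. The 2 CpGs 295 and 292 bp before the start, singled out after their values were seen, were read in all 4 libraries. At the first, 1 of 6 and 3 of 8 control reads were methylated against 8 of 9 and 5 of 8 FGR reads. At the second the reads were 1 of 6 and 2 of 7 against 8 of 9 and 4 of 8. They stand 3 bp apart, so 1 DNA molecule gives reads at both.

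**Figure D3:**
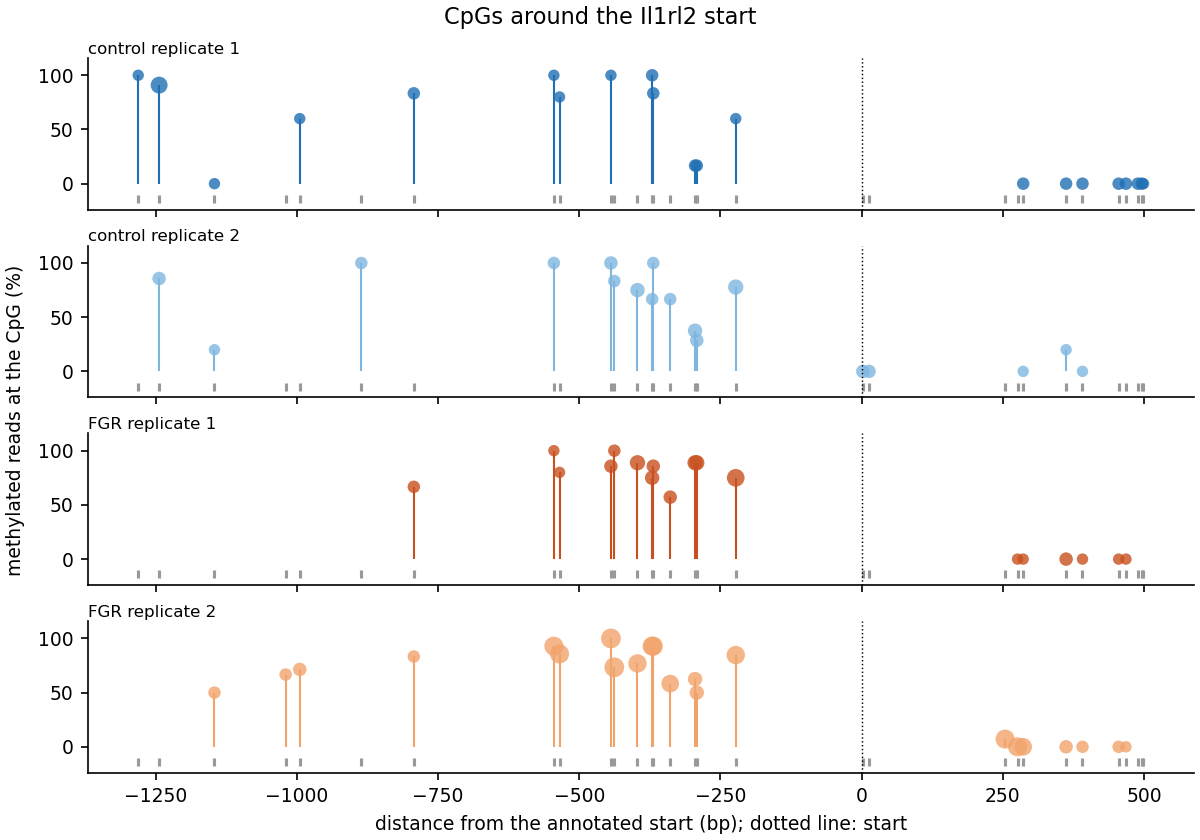
Methylation level in percent of each listed CpG around the start of Il1rl2, against the distance from the start in bp, for the 4 libraries. CpGs from 545 to 339 bp before the start are mostly methylated and those after the start are near 0, with intermediate values between.

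Of the 10 start windows 8 stood higher in FGR, 2 lower, and the median difference was 3.21 points. The groups did not overlap in 2 windows, those of Il1rl2 and of the most downstream Il18r1 start, beside 33.6% of all starts. Over all starts 54.4% were lower, and the median was -0.928 points. The first and second start windows of Il1r1 and Il1rl1 are separate, whereas those of Il18r1 overlap, so the 10 are not independent. Averaged over CpGs listed in both groups, 4 of the 10 windows were higher in FGR and 6 lower, so the count of higher starts turned with the CpGs compared. Il1rl2, the most downstream start of Il18r1 (15.8 points over all CpGs, 4.56 points per CpG of both groups) and the second start of Il1r1 were higher by both measures, and Il18rap lower by both. In pooled reads of the CpGs of both groups the second start of Il1r1 turned to -4.78 points, while the other 3 kept their direction.

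Stretches of low methylation inside the cluster were located as runs of at least 4 neighbouring listed CpGs, each at 50% or less over the 4 libraries together, with the whole run under 30%. This definition was set after the data had been seen. There were 26 such runs, 64 to 1161 bp long, with 4 to 27 CpGs, and they held 6.20% of the CpGs of the cluster. That is 7.29 runs per 1000 listed CpGs, beside 5.12 over the autosomes. Of the 26 runs 20 fell in a gene of the cluster and 6 between genes, with 6 in Il1r1, 5 in Il1rl1, 3 each in Il1r2 and Il1rl2, 2 in Il18r1 and 1 in Il18rap.

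Runs at a RefSeq start were found for Il1r1 (second start), Il1rl2 and Il18rap. None spanned any of the starts used here for Il1r2, Il1rl1 or Il18r1, whose nearest runs lay within the gene. The long gene Il1r1 held further runs, among them chr1:40265569-40266188 at 5.65%, chr1:40262980-40263414 at 7.34% and chr1:40294784-40295523 at 2.15%. Il1rl1 had its least methylated run, chr1:40404636-40405195, across the beginning of the annotated gene, which is not among the 10 starts used here. This run lay away from both starts used for Il1rl1. It had 0 of 81 methylated reads over 10 CpGs, which allows a level of up to 3.70%. Between Il1rl2 and Il1rl1 lay the run chr1:40381048-40381652, at 5.56% over 15 CpGs. Il18r1 had runs at chr1:40475484-40476276 and chr1:40479573-40480286, the latter at 5.15%.

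The runs were picked as low over the 4 libraries together, which largely sets their level in each. In 4 of the 26 at least 1 library was over 30%, up to 50%, and 1 run was listed in a single library. Their 221 CpGs together stood at 8.88%, 11.4%, 11.5% and 8.93% in control 1, control 2, FGR 1 and FGR 2, with no order by group. Over the 85 run CpGs listed in both groups, the mean difference per CpG was -0.199 points. For the 7 runs with at least 5 CpGs of both groups, the largest difference was 9.29 points per CpG and 5.23 points in pooled reads, both in the Il1r1 run chr1:40265569-40266188. At the start of Il1rl2 the 12 such CpGs of the run had 8.64% for control and 3.54% for FGR, so the higher FGR level of that window lay in the CpGs before the run.

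Of the 127 tested tiles 1 was called (0.787%), where 0.114% of all autosomal tiles were, 629 of 550538. The count rests on the contrast that picked the cluster and is given as a description. The called tile is chr1:40356001-40357000, inside Il1rl2 and 31912 bp from its start. Methylated reads were 5 of 33 in control 1 (15.2%, interval 6.65 to 30.9%), 0 of 35 in control 2 (0%, 0 to 9.89%), 45 of 62 in FGR 1 (72.6%, 60.4 to 82.1%) and 47 of 78 in FGR 2 (60.3%, 49.2 to 70.4%). Both FGR libraries lay above both controls, a difference of 58.8 points between 7.58% ± 10.7 and 66.4% ± 8.71. The call rests on how residual degrees of freedom were counted, a choice made after the data had been seen: counted in every group, they left 0 tiles called in the cluster and 1 over the autosomes. The tile was also not called without control 2, with a replicate block, with limma or with overdispersion taken from the deviance.

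The 16 listed CpGs of this tile fall in 2 parts. The first part, 9 CpGs from chr1:40356022-40356461, had 0 methylated reads in every library, of 28, 35, 15 and 28 reads. These are 0 of 63 control reads, which allows up to 4.76%, and 0 of 43 FGR reads, which allows up to 6.98%. The second part, 7 CpGs from chr1:40356730-40356934, lies 269 bp further on and was methylated wherever it was listed, in 5 of 5 reads of control 1, 45 of 47 of FGR 1 (95.7%, 85.8 to 98.8%) and 47 of 50 of FGR 2 (94.0%, 83.8 to 97.9%). Control 2 listed none of its CpGs and control 1 listed a single one.

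Of the 6 CpGs listed in both groups, none differed. Those at 40356022, 40356043, 40356069, 40356172 and 40356198 had 0 methylated reads in both groups, and that at 40356760 had 5 of 5 control and 8 of 8 FGR reads methylated. The mean over these 6 was 16.7% in both groups, 0 points apart. No CpG of the tile was listed in all 4 libraries. At the 6 CpGs listed in both groups the levels were thus the same. The methylated part holds only 1 of them, with 5 control reads, all from control 1, which allow a level from 56.6 to 100%. The libraries also differed in which of the 2 parts they listed. Whether the called difference comes from that was not tested.

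**Figure D4:**
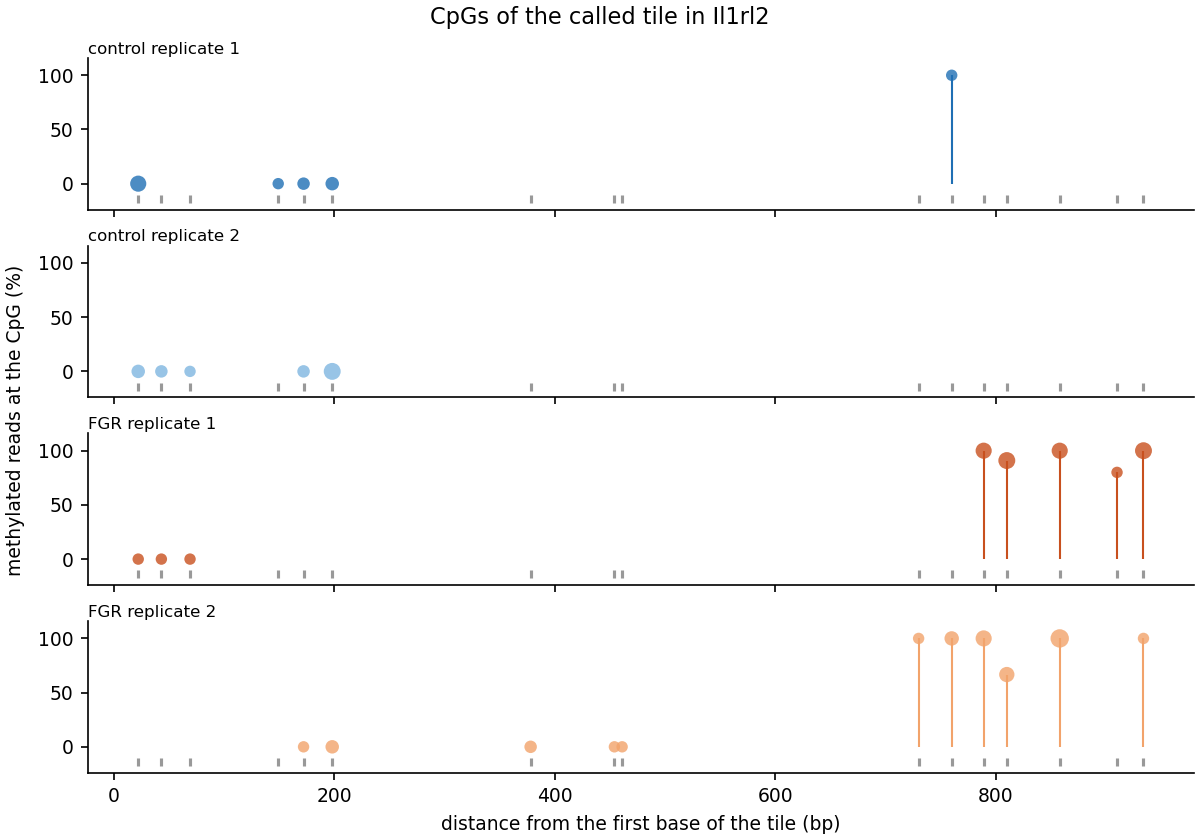
Methylation level in percent of each listed CpG of the called tile in Il1rl2, against the distance from the first base of the tile in bp, for the 4 libraries. The first 9 CpGs are at 0 in all libraries, the last 7 are high and were listed almost only in the FGR libraries.

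Among the 44 tested tiles with at least 5 listed CpGs in every library, the 3 largest rises were the called tile, a tile of Il18r1 (chr1:40479001-40480000) and one at the start of Il1rl2 (chr1:40324001-40325000). The Il18r1 tile had 40.4%, 15.7%, 85.7% and 26.9% in control 1, control 2, FGR 1 and FGR 2, which overlap, and its rise of 28.2 points was -1.48 points at CpGs of both groups. The Il1rl2 tile had 48.4%, 52.0%, 66.0% and 59.6%, with no overlap, and its 12.6 points were 6.20 points at 14 CpGs of both groups. It lies within the start window of Il1rl2, and its CpGs include those 295 and 292 bp before that start.

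Among the same 44 tiles the 3 largest falls were 1 of Il1rl1 and 2 of Il1r1. The Il1rl1 tile, chr1:40414001-40415000, had 89.3%, 76.9%, 62.2% and 51.2%, both FGR libraries lower, and fell by 26.4 points over all and by 15.5 points at 10 CpGs of both groups. In pooled reads of those CpGs the difference was -17.9 points. The tile was not called. The Il1r1 tile chr1:40294001-40295000 had 86.0%, 79.7%, 80.3% and 59.1%, a difference of -13.1 points that was -0.0446 points at shared CpGs. The tile chr1:40314001-40315000 had 55.4%, 72.7%, 64.0% and 42.2%, with -10.9 points and -5.06 points. Tiles with fewer CpGs in a library reached larger falls. The largest in the cluster, named after its value was seen, was the Il1r1 tile chr1:40263001-40264000, with 58.1%, 88.6%, 18.5% and 43.3%. Its -42.4 points became 6.04 points per CpG at the 7 CpGs of both groups, and -8.98 points in pooled reads there.

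**Figure D5:**
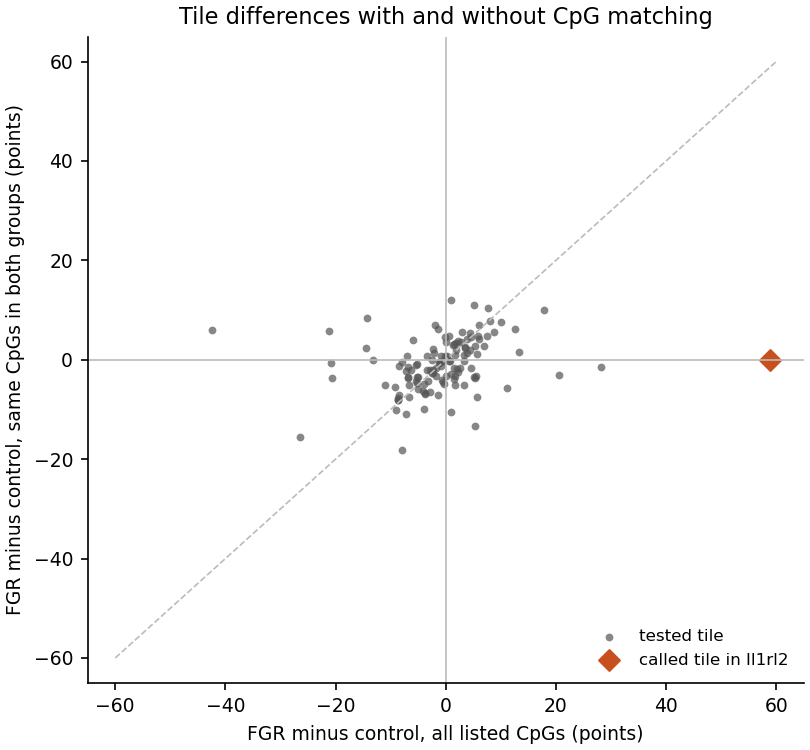
FGR minus control in percentage points for each tested 1-kb tile of the cluster, over all listed CpGs against the mean over CpGs listed in both groups. Of the tiles that can be placed, 8 differ by 20 points or more over all CpGs and 0 at CpGs of both groups.

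Tile by tile, 68 of 127 (53.5%) were lower in FGR, as were 51.8% of all tiles. The groups did not overlap in 39 tiles (30.7%), 19 with FGR above and 20 with FGR below, and in 33.0% of all tiles. Over the 126 tiles with at least 3 CpGs in both groups, the median size of the difference was 4.24 points over all CpGs and 3.51 points averaged over the CpGs of both groups. Differences of 20 points or more occurred in 8 of them over all CpGs and in 0 over the CpGs of both groups. A median tile had 11 listed CpGs, of which 7 were listed in both groups.

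The wider interleukin 1 pathway, a list of 24 genes of ligands, accessory chains, adaptors and kinases, showed no called body or start. The same rule called 0 of all 28039 bodies and 0 of all 22296 starts. The pathway's 18 measured bodies divided into 8 higher and 10 lower ones in FGR, at a median of -0.939 points. Of all bodies 60.7% were lower, at a median of -0.842 points. The pathway's 17 measured starts of 13 genes divided into 5 higher and 12 lower ones, at a median of -3.49 points. Of all starts 54.4% were lower, at a median of -0.928 points. Starts 2 and 3 of Il1rn, both lower, have overlapping windows with the same levels, so the 17 are not independent. Among ligands, the body of Il1a had 69.0%, 58.4%, 61.5% and 61.0% in control 1, control 2, FGR 1 and FGR 2. The body of Il1b, the other interleukin 1, had 87.8%, 97.0%, 96.6% and 94.1%. That of Il1rn, the receptor antagonist, had 68.3%, 76.5%, 63.1% and 78.3%. These 3 genes overlapped between the groups.

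The ligands of the other receptors were measured as well. Il18 had 43.7%, 40.6%, 10.9% and 25.9% at its start, both FGR libraries lower by 23.7 points between the means, and 86.0%, 83.8%, 80.03% and 83.6% in its body. Il33 had 79.3%, 74.7%, 76.7% and 73.8% in its body. Il1rap, the accessory chain shared by Il1r1, Il1rl1 and Il1rl2, had 78.9%, 77.4%, 78.0% and 77.8% in its body, and its start ranged from 2.78% to 92.8% within the 4 libraries. Sigirr, an inhibitory receptor of the family outside this cluster, had 31.4%, 48.1%, 55.0% and 82.2% in its body, both FGR libraries higher. The start of Myd88, the adaptor of the receptors, was unmethylated in all libraries, at 0.862%, 0.546%, 1.72% and 0.667%. All levels of the pathway genes are over all listed CpGs, and their differences at CpGs of both groups are not given here.

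The labelled cell type was compared with gene starts of marker lists, which give methylation and not RNA. Of 10 microglia markers 6 had a measured start, and 4 of these were under 30% in the mean of the libraries, at 0% for Sall1, 1.99% for P2ry12, 2.45% for Cx3cr1 and 19.6% for Fcrls, while Siglech was at 54.6% and Aif1 at 87.2%. The start of Tmem119 was not measured. None of 8 measured starts of 9 lymphocyte and mast cell markers was under 30%, with a range of 38.1% to 87.8% and a median of 80.7%. Of neuronal markers 1 of 5 was under 30%, of astrocyte markers 1 of 3, of endothelial markers 1 of 2 and of oligodendrocyte markers 0 of 1. The neuronal one was Syt1, counted by its lower start at 2.84%, while its other start was at 51.2%. The median over the microglia markers was 11.4%, 6.06%, 8.08% and 8.04% in the 4 libraries. Single marker starts moved more. Of 26 marker windows 7 had both FGR libraries below both controls and 3 above, beside 33.6% of all starts without overlap. Siglech, of the microglia list, had 71.6%, 93.3%, 13.3% and 40% with as few as 15 reads in a library. Gfap, of astrocytes, had 90.5%, 88.5%, 56.0% and 68.0%, and Kit, of mast cells, 17.6%, 32.4%, 50% and 52.6%. The marker levels are over all listed CpGs, and their differences at CpGs of both groups are not given here. The part of other cell types in the cluster's levels was not tested.

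The body levels most like those of Il1rl2 in all 4 libraries, by the largest difference in any library, were those of Usp53 on chromosome 3 (1.54 points), Syncrip on chromosome 9 (1.56 points) and Coq8a on chromosome 1 (1.66 points), among 10218 protein-coding genes. That likeness is over 4 libraries only, 1 profile of 3 libraries near one level and FGR 2 below.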

How the data were processed

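Whole-genome bisulfite libraries of hippocampal microglia, 2 control and 2 FGR, were analysed from 1 deposited table each. Tools named in the submitters' processing notes are Trim Galore 0.6.5, methylKit 1.28.0 and Bismark, for which no version is given, with build mm10. The deposited coverage is a count of reads per cytosine, at least 5, and the deposited methylation value is a percent of those reads, per the file headers. Libraries held 9335713, 10023353, 7615146 and 13578464 listed cytosines. Their coverage summed to 62202250, 66971740, 49563150 and 91762720, where a read over several cytosines counts at each of them.

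Strands were summed per CpG, and each library's most covered 0.1% of CpGs were dropped. Regions (1-kb tiles, starts from the RefSeq promoter table, bodies) needed 3 CpGs and 10 reads in each library. A quasi-binomial model of methylated against unmethylated reads had a group term alone and Pearson overdispersion moderated with squeezeVar of limma 3.58.1 in R 4.3.3, kept at 1 or above, with residual degrees of freedom counted in groups whose level was not 0 or 100%. This count was chosen after the files had been read, and the tile calls depend on it. Adjustment was by Benjamini-Hochberg over all autosomal regions, and the script was tested on simulated data. Python 3.11.15, numpy 2.4.6, pandas 2.3.3 and scipy 1.17.1 did the rest. Exons and introns are not given, since the gene table holds none, and reference sequence was used only in the RefSeq promoter windows.

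Named tiles are the called tiles, those under 30% and the 3 largest rises and falls with at least 5 CpGs in every library. The members and lists were chosen with earlier results of these data known. Replicate numbers were not taken to pair the libraries, except in the fit with a replicate block. Alternatives tried were CpGs listed in both groups or in all libraries, other thresholds, shifted tiles, limma on log ratios, a replicate block, a deviance estimate of overdispersion, residual degrees of freedom counted in every group and leaving out each library.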

Additional observations from a re-analysis of the deposited data

How the results depend on the processing

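The level difference of the cluster, -2.35 points over all listed CpGs, was -1.19 points at CpGs listed in both groups, -1.01 points at CpGs listed in all 4 libraries, -0.635 points averaged per CpG of both groups and -4.05 points at CpGs with at least 10 reads. It ranged from -3.44 to -1.25 points when 1 library was left out, the latter without FGR 2. The direction was the same in all of these.

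Counts of calls moved with the settings. Of 629 autosomal tiles called, 1 was called at CpGs listed in all 4 libraries, 48 with at least 5 CpGs and 20 reads, 78 with overdispersion from the deviance, 1 with residual degrees of freedom counted in every group (both added after seeing the data) and 0 with limma on log2 ratios, where 25626 tiles had an unadjusted p under 0.05. Leaving out 1 library gave 450 to 667 and shifting tiles by 500 bp gave 615. Deviations of same-numbered libraries had a correlation of 0.00211 over tiles. With so few reads per CpG this cannot tell whether the numbers pair the samples, and the labels do not say. A fit with the replicate number as a block called 0 tiles, with 25851 at an unadjusted p under 0.05.

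In the cluster the count of 1 called tile became 0 at CpGs listed in all 4 libraries, with limma, with the deviance (adjusted p = 0.0602 in the quasi-binomial model), with residual degrees of freedom counted in every group (adjusted p = 0.247) and with the replicate block (adjusted p = 0.294), beside 0.00382 in the fit behind the report. It ranged from 0 to 1 when 1 library was left out, with 0 without control 2 (adjusted p = 0.15). Shifted tiles gave 1 call elsewhere, chr1:40378501-40379500, higher by 31.3 points. That tile holds the low run chr1:40378770-40379031, which control 1 listed at 8 CpGs, FGR 2 at 1, and control 2 and FGR 1 at 0. Its difference at CpGs of both groups is not given here. The difference of the called tile was 14.9 points in pooled reads of CpGs listed in both groups, 0 points averaged per CpG and 51.3 to 66.4 points with 1 library left out. Over all autosomal starts and over all bodies, 1 each was called at CpGs listed in all 4 libraries, neither in a member, and 0 by the other settings run. Of the 17 differences of member starts, member bodies and the called tile, 8 changed sign when averaged per CpG of both groups, 5 at those CpGs in pooled reads, 7 of 14 at CpGs of all 4 libraries and 2 to 4 when 1 library was left out. The cause was not tested. The mean coverage of a listed cytosine was 6.51 to 6.76 reads, so a single CpG has wide counting error, and CpGs with fewer than 5 reads are not analysed here.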
